A study of Mus musculus with 16 samples.

Results

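The genes described here encode the machinery that pulls chromosomes apart and splits a dividing cell: the kinetochore, the spindle checkpoint, the mitotic kinases and kinesins, the spindle, the cytokinesis ring and the condensed chromosome. The set holds 50 of the 55385 genes of the deposited expression table, chosen by name, with cyclins and their kinases left out. Their RNA was followed in cells sorted from mouse retina as positive for Iba1-EGFP, a reporter that marks cells using the promoter of Iba1 (Aif1), and labelled as microglia, the resident macrophages of the retina. RNA was sequenced in bulk in 16 libraries, 4 from untreated retina (day 0) and 4 each at days 2, 4 and 7 after optic nerve crush, an injury to the axons of retinal ganglion cells behind the eye. All mice carried the Iba1-EGFP strain label. They were 15 weeks old at day 0, 13 weeks at days 2 and 4 and 16 weeks at day 7, so day and age cannot be told apart except between days 2 and 4. How many cells and animals stand behind a library is not stated in the labels, nor whether the libraries of a day came from separate animals. The p-values therefore rest on the scatter among these libraries, which may be technical. Expression was given as FPKM, the fragments assigned to a gene scaled by its length and by the reads of the library.

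When a cell divides, kinetochores assemble on each centromere and catch the microtubules of the spindle. A checkpoint holds the cell until every chromosome is attached, the anaphase-promoting complex then marks the brakes for destruction, and the chromosomal passenger complex and the cytokinesis proteins complete the split. These genes are transcribed late in the cell cycle and are nearly silent in resting cells, and microglia, which rarely divide in a healthy adult retina, are known to divide after injury. In bulk RNA, fewer cells of a type and less RNA per cell cannot be told apart, so a level here is an average over dividing and resting cells.

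The libraries differed in ways that touch these genes. The sample titles carry a 6-digit code whose first 4 digits place replicates 1 and 2 of every day in one batch (batch 1) and replicates 3 and 4 in another (batch 2), and the titles begin their second field with F in the last 2 libraries of day 2 and with M elsewhere. The labels do not explain the code or the prefix. Reads assigned to genes were recovered here from the step size of the FPKM values and ran from 8647276 to 15708302 per library. Between 9315 and 16522 genes reached 1 FPKM. Some levels differed sharply among the libraries of a day: Ect2, for example, was at 2.78, 2.39, 0 and 24.9 FPKM in day 2 replicates 1 to 4. The cDNA was amplified and the number of cells is not stated, so a value of 0 does not show that the RNA was absent from the cells. The 12 microglia markers examined were all present at every day, with a mean log2 level between 6.81 and 8.98 over the libraries. RNA of other retinal cells was also there. The mean log2 level of 8 rod markers lay between 6.03 and 9.07. That of 8 Mueller glia markers was 7.1 and 5.87 in day 0 replicates 1 and 2, against 2.66 and 3.53 in replicates 3 and 4. For 8 endothelial markers it was 5.23 and 3.63 in day 0 replicates 1 and 2, against 0.11 and 0.05 in replicates 3 and 4. The endothelial mean was at most 0.76 at day 2, 0.31 at day 4 and 1.96 at day 7. Markers of monocytes and of T and B cells were low, with means of at most 1.43 and 0.85, and Ccr2, the monocyte chemokine receptor, was at or below 0.18 FPKM in all 16 libraries. Of the 8 monocyte markers 2 were tested, and Plac8 was called higher at day 7 (3.14 ± 0.58 on the log2 scale; limma, adjusted p = 0.031), with 6.18 to 16.8 FPKM against at most 0.72 at day 0.

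The promoters of the set share sequence features that the choice by name did not use. Many mitotic genes are known to be switched on through a cell cycle genes homology region (CHR) close to the start of transcription together with CCAAT boxes upstream of it. RefSeq promoter sequences of build GRCm38.p6, from 250 bases before to 50 bases after the gene start, were matched for 42 of the 50 genes. The common CHR letters, TTTGAA or TTCGAA on either strand, were found in 32 of the 42 (76.2%), against 21.7% of the 27025 genes in the promoter table and 16.9% of the 8833 of them that were tested here for expression. CCAAT on either strand was also found in 32 (76.2%), against 41.1% of all genes in the table, and 20 (47.6%) held it at least 2 times, against 13.3%. Both motifs stood together in 28 (66.7%), against 9.65% of all genes. The motifs shared bases in 48 of the 32851 promoters of the table. Such a match is a stretch of letters and does not show that a factor binds there.

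The promoters of 4 genes with matches are shown first, because 3 of them belong to genes that rose after the crush and the last to a gene with high RNA before the crush. They are Cenpa (chr5:30666636-30666935, plus strand), Ube2c (chr2:164769679-164769978, plus strand), Prc1 (chr7:80294201-80294500, plus strand) and Spc25 (chr2:69206164-69206463, minus strand), each written 5′ to 3′ along its gene with the motif letters in capitals.
Cenpa: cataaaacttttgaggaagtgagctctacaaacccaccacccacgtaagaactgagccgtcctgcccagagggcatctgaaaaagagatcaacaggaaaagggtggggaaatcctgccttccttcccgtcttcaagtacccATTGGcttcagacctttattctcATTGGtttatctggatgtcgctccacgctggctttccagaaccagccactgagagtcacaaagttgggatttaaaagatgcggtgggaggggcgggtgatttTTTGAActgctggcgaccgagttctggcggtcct
Ube2c: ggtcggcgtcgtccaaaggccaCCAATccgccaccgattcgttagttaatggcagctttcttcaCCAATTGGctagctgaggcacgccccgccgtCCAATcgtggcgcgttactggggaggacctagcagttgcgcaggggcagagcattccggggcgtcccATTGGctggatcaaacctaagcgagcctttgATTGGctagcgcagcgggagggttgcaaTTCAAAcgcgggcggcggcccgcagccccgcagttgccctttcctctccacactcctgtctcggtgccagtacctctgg
Prc1: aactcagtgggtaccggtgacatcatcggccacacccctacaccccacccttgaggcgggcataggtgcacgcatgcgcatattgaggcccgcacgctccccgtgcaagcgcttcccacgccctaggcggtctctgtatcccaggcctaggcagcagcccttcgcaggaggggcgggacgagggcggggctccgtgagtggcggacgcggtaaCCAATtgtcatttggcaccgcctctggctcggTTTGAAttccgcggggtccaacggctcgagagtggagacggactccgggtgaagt
Spc25: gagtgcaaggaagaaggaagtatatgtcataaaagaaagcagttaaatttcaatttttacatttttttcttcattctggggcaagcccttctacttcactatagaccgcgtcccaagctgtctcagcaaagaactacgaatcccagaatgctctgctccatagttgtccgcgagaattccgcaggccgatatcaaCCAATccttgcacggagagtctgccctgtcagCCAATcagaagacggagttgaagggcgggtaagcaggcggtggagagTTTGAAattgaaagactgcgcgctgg
Counting the first base of the gene in RefSeq as 1, the CHR letters of Cenpa began at base 17 and those of Spc25 at base 25. Those of Ube2c and Prc1 began at -29 and -5. This RefSeq start can differ from the start of the gene coordinates given below, as it does for Cenpa, Ube2c and Spc25. Cenpa held CCAAT at -109 and -86, Spc25 at -55 and -23, and Prc1 at -37. Ube2c held it at 6 places, of which those at -186 and -183 overlap on opposite strands. Spc25, which was not called higher at any day, thus carried both motifs, as did these 3 called genes.

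Neither motif was found in the windows of Birc5, Mad2l1, Nuf2, Nusap1, Pttg1 and Tacc3. The windows of Birc5 (chr11:117848987-117849286, plus strand) and Nusap1 (chr2:119618048-119618347, plus strand) are shown because both genes were called at days 2 and 4.
Birc5: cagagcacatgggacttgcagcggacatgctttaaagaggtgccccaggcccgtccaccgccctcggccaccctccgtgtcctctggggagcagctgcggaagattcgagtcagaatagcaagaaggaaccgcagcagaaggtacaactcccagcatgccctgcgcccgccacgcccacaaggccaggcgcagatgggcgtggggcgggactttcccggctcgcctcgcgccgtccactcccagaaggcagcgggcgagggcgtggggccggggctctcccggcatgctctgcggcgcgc
Nusap1: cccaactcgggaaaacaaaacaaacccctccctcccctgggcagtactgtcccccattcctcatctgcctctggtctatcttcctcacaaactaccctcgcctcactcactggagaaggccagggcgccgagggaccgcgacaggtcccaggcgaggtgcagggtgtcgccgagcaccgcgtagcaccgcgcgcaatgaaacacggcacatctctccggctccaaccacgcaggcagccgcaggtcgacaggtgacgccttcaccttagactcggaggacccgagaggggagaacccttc
No match says only that these letters are absent from these windows. The windows of Aurkb, Incenp, Kif20a, Pbk, Smc4, Spc24, Stmn1 and Tpx2 were not analysed here.

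Untreated microglia held little RNA of the set. Of the 50 genes, 13, 13, 5 and 8 reached 1 FPKM in day 0 replicates 1 to 4. In the same order, 6, 8, 22 and 23 of them were listed at 0. Among all genes, those above 0 numbered 30417, 31906, 16077 and 16544 in these libraries. Of the 14795 tested genes, 90.9%, 75.1%, 61.4% and 64.3% reached 1 FPKM there. The larger number of zeros in replicates 3 and 4 thus went with fewer genes above 0 in the whole library. At day 2, 43, 38, 45 and 45 of the 50 genes reached 1 FPKM. At day 4 the libraries split, with 49 and 47 genes at 1 FPKM in replicates 1 and 2 but 20 and 22 in replicates 3 and 4. At day 7 the counts were 33, 19, 25 and 12. The median level of the 50 genes followed the same course: at most 0.178 FPKM in every day 0 library, 6.99 to 12.4 at day 2, 13.8 and 10.6 against 0.0295 and 0.384 at day 4, and 0.152 to 2.59 at day 7. All 4 day 2 libraries were thus above all 4 day 0 libraries in this median, and day 4 held the highest library of the study as well as one within the day 0 range, replicate 3.

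**Figure D1:**
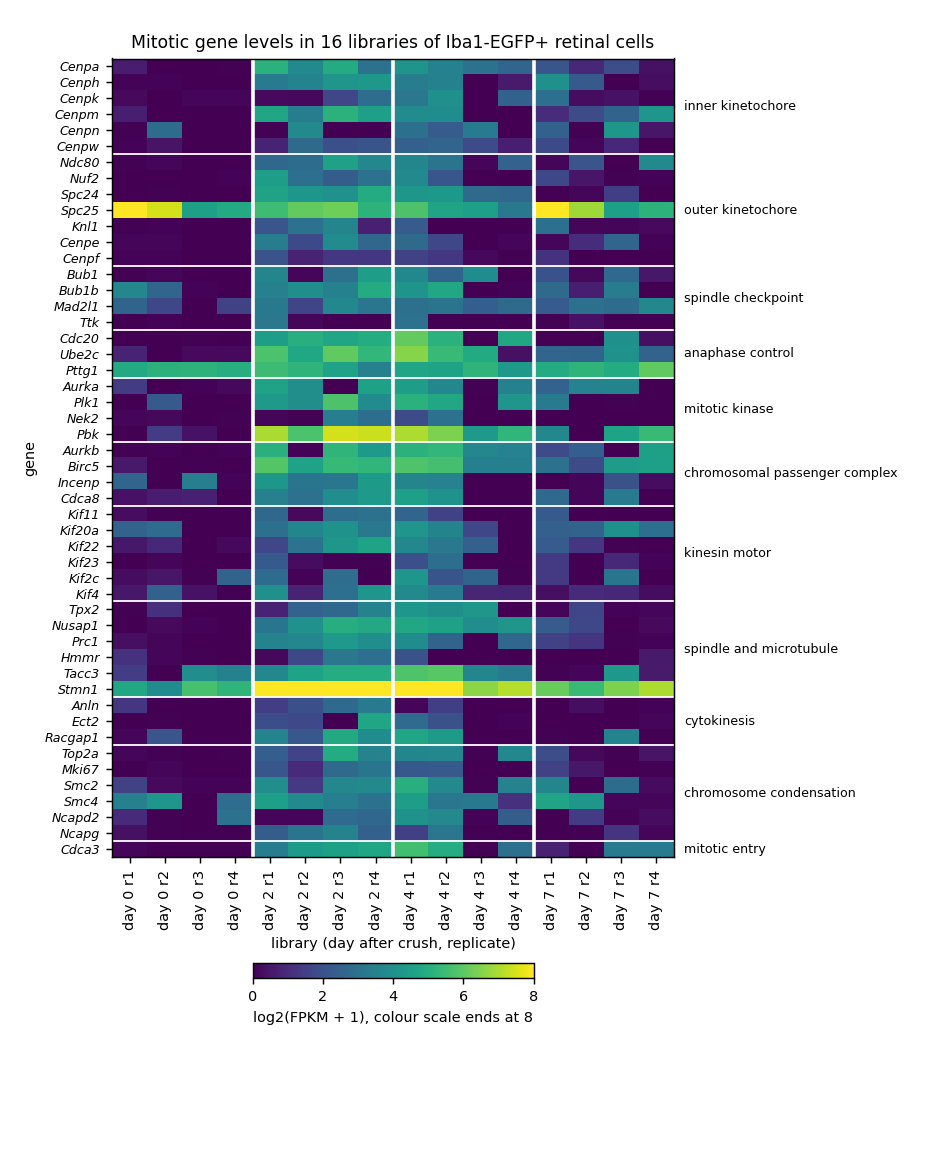
Level of each of the 50 genes in each of the 16 libraries, as log2(FPKM + 1) on a colour scale that ends at 8, with genes in rows by role and libraries in columns by day and replicate. Most rows are dark at day 0, bright in all 4 day 2 libraries and in the first 2 day 4 libraries, and dark again in day 4 replicates 3 and 4, while Spc25 and Pttg1 are bright at day 0.

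**Figure D2:**
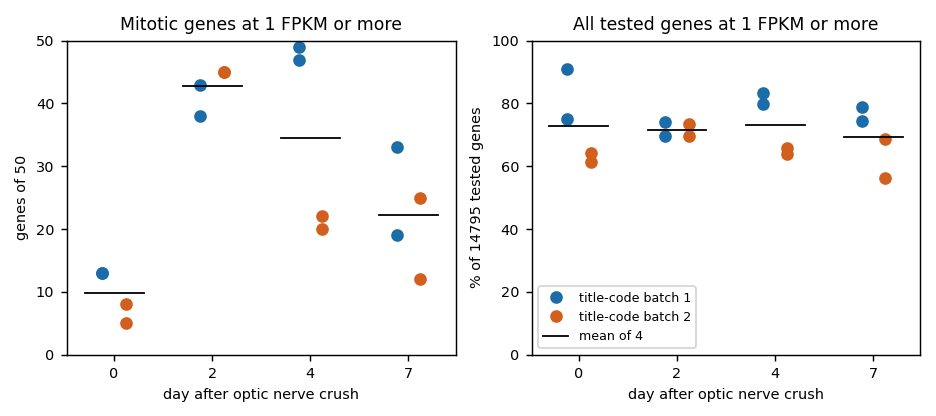
Genes at 1 FPKM or more in each library, for the 50 mitotic genes (left, a count) and for the 14795 tested genes (right, in percent), by day after optic nerve crush; points are libraries coloured by title-code batch and bars are means of 4. The mitotic genes reach 38 to 45 at day 2 and separate by batch at day 4, where all tested genes lie at 83.4% and 79.8% in batch 1 and 63.9% and 65.8% in batch 2.

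The first question was what happened to the set 2 days after the crush. Changes were estimated with limma on log2(FPKM + 1) in all 16 libraries with batch as a covariate, and p-values were adjusted by Benjamini-Hochberg over the 14795 genes that reached 1 FPKM in 4 or more libraries. Of the 50 genes 49 passed this filter, Ttk being the exception. Most of the 49 reached 1 FPKM in no day 0 library and so passed only through later libraries, where they were high. The filter thus favours genes that were higher after the crush, and counts and medians over the 49 are descriptions only. At day 2 the test called 9 of the 49 higher than at day 0 and none lower, where 0.25% of all tested genes were called higher and 0.0608% lower. A further 31 missed the adjusted threshold but had an unadjusted p under 0.05. In all, 40 of the 49 had such a p, as had 1439 of the 14795 tested genes. The estimate was positive for 47 of 49, with a median of 2.7 on the log2 scale, against a median of 0.04 over all tested genes. Of the 50 genes, 28 had all 4 day 2 libraries above all 4 day 0 libraries, as had 3.37% of all tested genes.

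The 9 genes came from 6 of the 11 roles. In the inner kinetochore it was Cenpa (chr5:30666777-30674830, plus strand; gene coordinates here are those of GRCm38), the histone H3 variant that marks the centromere. Cenpa was at 0.569, 0, 0 and 0.0372 FPKM in day 0 replicates 1 to 4, at 33.2, 12.8, 29.6 and 6.88 at day 2, at 16.6, 10.4, 7.06 and 5.11 at day 4 and at 3.29, 0.9, 2.69 and 0.277 at day 7. No day 2 or day 4 library came near the day 0 levels. Its rise at day 2 was 4.02 ± 0.54 on the log2 scale (SE; limma, adjusted p = 0.00517), with 4.12 within batch 1 and 3.93 within batch 2. Cenpm, a subunit of the constitutive centromere network and the member with the highest mean level in this role, had 0.58, 0, 0 and 0 FPKM at day 0 and 25, 9.56, 34.0 and 22.0 at day 2, but its change of 4.27 ± 0.93 missed the threshold (limma, adjusted p = 0.076). At day 4 Cenpm reached 13.6 and 13.8 FPKM in batch 1 but was listed at 0 in both batch 2 libraries, and at day 7 it was at 1.02, 2.62, 4.99 and 17.5. Of the other inner kinetochore genes Cenph, Cenpk, Cenpn and Cenpw, none passed, with changes between 0.24 and 3.78. Cenph came closest, with 8.56 to 18.3 FPKM at day 2 against at most 0.0584 at day 0 (limma, adjusted p = 0.0545).

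In the outer kinetochore the rod that grips the microtubule is the Ndc80 complex. It is built from Ndc80, Nuf2, Spc24 and Spc25. Spc24 (chr9:21755442-21760303, minus strand) was at 0, 0.0382, 0 and 0 FPKM at day 0, at 23.2, 17.4, 15.5 and 29.1 at day 2, at 17.9, 18.3, 5.77 and 5.23 at day 4, and at 0, 0.0804, 1.79 and 0 at day 7. The 8 libraries of days 2 and 4 were all above the 8 of days 0 and 7. Spc24 rose at day 2 by 4.43 ± 0.51 (limma, adjusted p = 0.00265), by 4.37 in batch 1 and 4.48 in batch 2. Nuf2 (chr1:169497934-169531464, minus strand) went from at most 0.0458 FPKM in day 0 libraries to 21.0, 6.53, 4.12 and 6.91 at day 2, which gave a change of 3.15 ± 0.61 that passed (limma, adjusted p = 0.0475). At day 4 Nuf2 was at 12.9, 3.38, 0 and 0.01 FPKM, with replicates 3 and 4 as low as day 0. At day 7 it was at 2.3, 0.391, 0.0223 and 0.064. Ndc80 itself was at 5.35 to 22.9 FPKM at day 2 against at most 0.0757 at day 0 and did not pass, with a change of 3.40 ± 0.88 (limma, adjusted p = 0.155).

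Spc25 (chr2:69193895-69206194, minus strand) did not follow its 3 partners. It was already at 314, 179, 22.3 and 28.9 FPKM in day 0 replicates 1 to 4, at 45.1, 66.6, 73.8 and 34.7 at day 2, at 53.7, 24.6, 22.0 and 8.17 at day 4, and at 280, 114, 21.8 and 35.3 at day 7. Its 4 highest libraries were replicates 1 and 2 of days 0 and 7, and those 4 libraries also held the highest Mueller glia marker levels of the study (7.1, 5.87, 5.98 and 3.82) and the highest bipolar marker levels (5.04, 4.84, 3.40 and 4.64). The part of those cells in its level was not tested. Its change at day 2 was -0.56 ± 0.59 (limma, adjusted p = 0.824), with -2.09 in batch 1 and 0.97 in batch 2. At day 4 it was -1.77 ± 0.59 (limma, adjusted p = 0.095), and within batch 1 alone the fall of 2.67 passed. Knl1, Cenpe and Cenpf, which link the checkpoint and motor proteins to the outer plate, had all 4 day 2 libraries above all of day 0 with changes of 2.34, 2.86 and 1.30, and none passed.

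**Figure D3:**
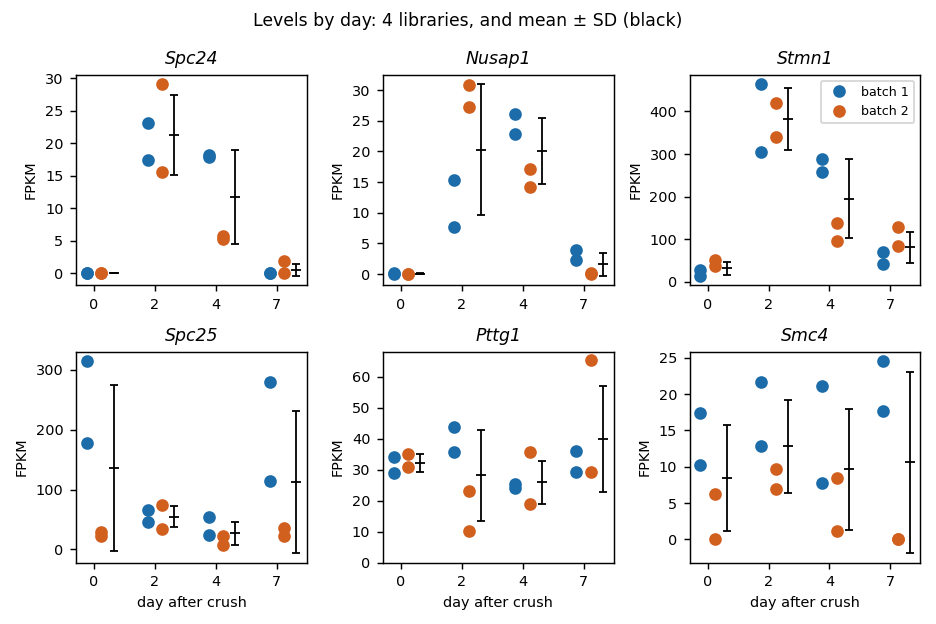
Levels in FPKM of 3 genes that passed the test at day 2 (Spc24, Nusap1 and Stmn1) and 3 that did not (Spc25, Pttg1 and Smc4), by day after crush; points are the 4 libraries of a day coloured by title-code batch, and black bars are the mean ± SD. Spc24 and Nusap1 are near 0 at day 0 and low at day 7, Stmn1 is present at day 0 and reaches 464 at day 2, and Spc25 is highest in batch 1 at days 0 and 7.

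Among the checkpoint genes Bub1, Bub1b, Mad2l1 and Ttk, none was called at day 2. Bub1b, the BubR1 kinase that restrains the anaphase-promoting complex, was at 12, 5.13, 0.0542 and 0.017 FPKM at day 0 and at 10.3, 14.3, 10.4 and 29.2 at day 2. The day 0 libraries overlapped with day 2 in batch 1 and not in batch 2, and the change of 2.36 ± 1.01 did not pass (limma, adjusted p = 0.448). Bub1b was at 16.6, 26.4, 0 and 0.0596 at day 4 and at 5.84, 0.58, 9.45 and 0 at day 7. Mad2l1 (Mad2), a further brake, was at 2.21 to 12.4 FPKM at day 2 and at 0.0092 to 5.03 at day 0. Ttk (Mps1), the kinase that starts the checkpoint, was above 1 FPKM only in day 2 replicate 1 (8.09) and day 4 replicate 1 (6.87).

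Of the 3 genes that control anaphase, Ube2c (chr2:164769898-164778822, plus strand) rose. It encodes the ubiquitin-conjugating enzyme of the anaphase-promoting complex and was at 0.722, 0, 0.149 and 0.14 FPKM at day 0, at 51.7, 26.3, 65.7 and 38.5 at day 2, at 93.2, 41.4, 28.4 and 0.269 at day 4, and at 5.14, 4.96, 15.7 and 4.90 at day 7. All but day 4 replicate 4 of the later libraries were above day 0. Its rise at day 2 was 5.17 ± 0.94 (limma, adjusted p = 0.0316). Ube2c shares 22.8% of its exon bases with the antisense gene Tnnc2, and the library kit does not mark strand; Tnnc2 was at most 0.456 FPKM in any library. Cdc20, the activator of the complex, was at 21.6 to 32.2 FPKM at day 2 and at most 0.0413 at day 0, a change of 4.8 ± 1.12 that did not pass (limma, adjusted p = 0.109). Pttg1 (securin), which holds the separase enzyme in check until anaphase, stood apart from both: it was at 28.9, 34.0, 35.1 and 30.8 FPKM at day 0, at 43.9, 35.6, 23.2 and 10.1 at day 2, at 25.3, 24.1, 35.6 and 18.8 at day 4, and at 29.3, 36.0, 29.3 and 65.4 at day 7. The days overlapped throughout, and the 95% interval of its day 2 change ran from -1.22 to 0.49.

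Of the 4 mitotic kinases Pbk, a kinase active in mitosis, was the one called. Pbk (chr14:65805837-65817822, plus strand) was at 0, 1.70, 0.302 and 0 FPKM at day 0, at 125, 51.8, 178 and 164 at day 2, at 130, 85.5, 18.6 and 37.8 at day 4, and at 12.2, 0, 23.8 and 41.7 at day 7. Its lowest day 2 library was still far above the highest day 0 library. The rise at day 2 of 6.43 ± 0.94 was the largest of the 49 (limma, adjusted p = 0.00999; 5.63 in batch 1 and 7.23 in batch 2). Plk1, Aurka and Nek2, which drive centrosome maturation and separation, were at 13.6 to 53.3, 0 to 23.6 and 0.0247 to 9.72 FPKM at day 2, and none passed.

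In the chromosomal passenger complex, which corrects wrong attachments and then moves to the midzone, Birc5 (survivin) rose. Birc5 (chr11:117849251-117855743, plus strand) was at 0.46, 0, 0.0227 and 0 FPKM at day 0, at 56.6, 23.6, 39.7 and 37.8 at day 2, at 54.8, 48.9, 9.93 and 9.97 at day 4, and at 6.97, 2.55, 20.3 and 22.0 at day 7. All 12 later libraries were above all 4 of day 0. Its day 2 rise was 5.13 ± 0.67 (limma, adjusted p = 0.00487), and 4.96 and 5.30 within batches 1 and 2. Aurkb (chr11:69045647-69051664, plus strand), the kinase of the complex, was at 0.0354, 0.0668, 0 and 0.0493 FPKM at day 0 and at 33.0, 0.0607, 37.0 and 18.5 at day 2, so day 2 replicate 2 stayed at the day 0 level and the change of 3.62 ± 1.07 did not pass (limma, adjusted p = 0.214). Incenp and Cdca8 (borealin), the scaffold subunits, had changes of 2.18 and 3.25 and did not pass.

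None of the 6 kinesin motors passed at day 2, although all 6 estimates were positive, between 0.60 (Kif2c and Kif23) and 3.01 (Kif22). Kif20a, which carries the passenger complex to the midzone, had the highest mean level among them. Its values were 4.85, 5.92, 0 and 0 FPKM at day 0, 6.52, 11.6, 16.2 and 8.36 at day 2, 17.0, 11.1, 2.28 and 0.00734 at day 4 and 4.53, 4.89, 15.1 and 6.56 at day 7. All day 2 libraries were above day 0, with a change of 2.14 ± 0.79 (limma, adjusted p = 0.357). Of the exon bases of Kif20a 29.3% overlap Cdc23 on the other strand, which was at 22.3 FPKM in its highest library, so part of the Kif20a signal cannot be told apart from that gene. Kif4 shares 15.1% with Pdzd11 in the same way.

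The spindle and microtubule genes gave 3 calls, Nusap1, Prc1 and Stmn1. Nusap1 (chr2:119618298-119651244, plus strand), which bundles microtubules near chromosomes, was at 0, 0.145, 0.0666 and 0.0179 FPKM at day 0, at 7.61, 15.4, 30.8 and 27.3 at day 2, at 26.1, 22.8, 14.2 and 17.2 at day 4, and at 3.90, 2.33, 0 and 0.15 at day 7. As with Spc24, the 8 libraries of days 2 and 4 all lay above the 8 of days 0 and 7. The day 2 rise was 4.16 ± 0.56 (limma, adjusted p = 0.00517), with 3.47 and 4.85 within batches 1 and 2. Nusap1 shares 4.24% of its exon bases with the antisense gene Oip5. Oip5 had means of 0.04, 9.08, 4.52 and 0.01 FPKM at days 0, 2, 4 and 7. Prc1 (chr7:80294450-80316259, plus strand), which crosslinks the midzone microtubules, was at 0.266, 0.0717, 0 and 0.0177 FPKM at day 0, at 10.9, 12.1, 18.6 and 14.3 at day 2, at 14.0, 4.82, 0 and 5.20 at day 4, and at 1.99, 1.33, 0.0258 and 0.0508 at day 7. It rose at day 2 by 3.76 ± 0.62 (limma, adjusted p = 0.0153). Its exon overlap with the antisense gene Rccd1 is 11.1%. Rccd1 had means of 0.44, 3.71, 1.37 and 0.66 FPKM at days 0, 2, 4 and 7. The part of the antisense genes in the Nusap1 and Prc1 levels was not tested. Stmn1 (stathmin; chr4:134468320-134473843, plus strand), which destabilises microtubules and is also expressed by neurons, had the highest level of the set at day 2. It was the one called gene with clear RNA at day 0: 26.3, 13.8, 49.9 and 36.8 FPKM, then 464, 305, 420 and 340 at day 2, 289, 258, 96.6 and 137 at day 4, and 70.3, 40.7, 84.0 and 129 at day 7. Its rise of 3.67 ± 0.44 (limma, adjusted p = 0.00265) took it from a mean of 31.7 ± 15.3 to 382 ± 72.9 FPKM (SD, n = 4). Tpx2, Tacc3 and Hmmr, which help build spindle poles, had changes of 2.1, 2.35 and 1.67 and did not pass.

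No gene of cytokinesis or chromosome condensation passed at day 2. Racgap1, a subunit of the centralspindlin complex at the midzone, was at 0.0884, 3.28, 0 and 0.0103 FPKM at day 0, at 11.3, 3.47, 28.0 and 13.8 at day 2, at 25, 19.6, 0 and 0 at day 4 and at 0.0291, 0.00964, 11.3 and 0.0143 at day 7. Its day 2 libraries lay above day 0, by 3.07 ± 1.15 on the log2 scale (limma, adjusted p = 0.367). Anln and Ect2, which organise the contractile ring, had changes of 2.05 and 2.07. The condensin subunit Smc4 was already at 10.3, 17.4, 0 and 6.22 FPKM at day 0, and was at 21.6, 12.9, 9.65 and 6.95 at day 2, 21.1, 7.80, 8.45 and 1.22 at day 4, and 24.5, 17.7, 0.0815 and 0.0779 at day 7. Its days overlapped, with a day 2 change of 1.04 ± 0.76 (limma, adjusted p = 0.717). Mki67 and Top2a, the usual markers of cycling cells, were at 0.955 to 7.61 and 2.07 to 29.4 FPKM at day 2, above all day 0 libraries in 4 of 4, with changes of 2.21 and 3.07 that did not pass (limma, adjusted p = 0.175 and 0.191). The remaining condensation genes Smc2, Ncapd2 and Ncapg had changes of 2.7, 0.41 and 2.76. Cdca3, which promotes entry into mitosis, was at 0.0727, 0.0172, 0 and 0 FPKM at day 0 and at 9.48, 19.3, 22.5 and 25 at day 2, a change of 4.22 ± 1.04 (limma, adjusted p = 0.135). At day 4 Cdca3 was at 46.8, 29.7, 0.0182 and 6.71 and at day 7 at 0.66, 0.00902, 8.92 and 9.03.

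**Figure D4:**
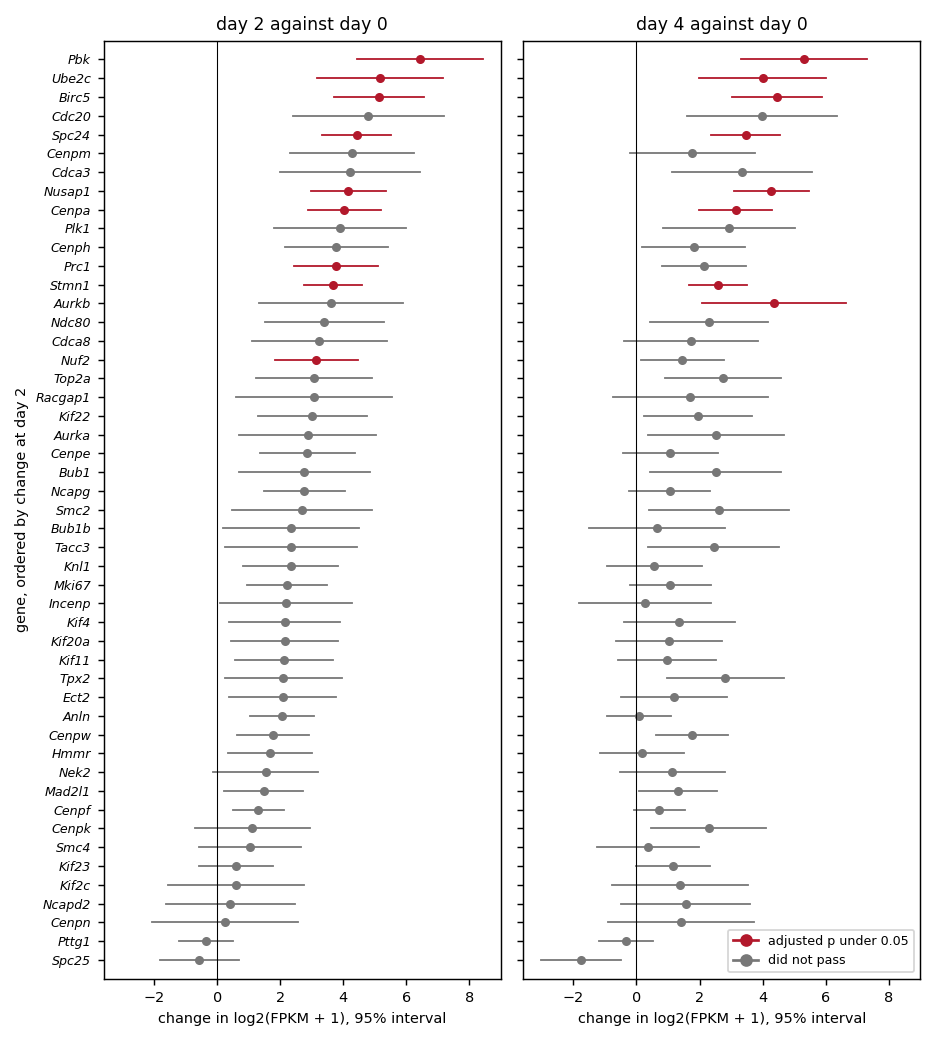
Change of each of the 49 tested genes at day 2 (left) and day 4 (right) against day 0, in log2(FPKM + 1) with its 95% interval from limma, ordered by the day 2 change; red marks an adjusted p under 0.05. Nearly all estimates lie right of 0 on both days, Pbk has the largest, and Spc25 and Pttg1 lie left of 0.

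For genes near 0 at day 0 the size of a change depends on the pseudocount, and the log2(FPKM + 1) scale understates it: with a pseudocount of 0.1 the Spc24 change was 7.58. The calls depended on the libraries. Without both day 2 libraries whose titles begin with F no member was called, with a median change of 1.73, and 1 of 14334 genes was called in all. With the mean bipolar and Mueller glia marker level as a covariate none was called, nor was any of the 14795 tested genes, and the median was 2.24. Leaving out single libraries, the calls of Cenpa, Spc24, Birc5, Nusap1 and Stmn1 held in all 16 fits. Pbk lost its call without day 2 replicate 4 (adjusted p = 0.0537). Prc1 lost it without day 0 replicate 1 or 2 or day 2 replicate 3 or 4 (adjusted p up to 0.0774), and Ube2c without day 0 replicate 1, 2 or 4 or any day 2 library (up to 0.14). Nuf2 kept it only without day 0 replicate 3 or day 4 replicate 1 or 3, with adjusted p up to 0.151 in the other 13 fits. Without day 0 replicates 1 and 2 together, Spc24 and Stmn1 remained called.

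Day 4 was compared with day 0 in the same fit. The test called 8 genes higher, where 4.62% of all tested genes were called higher, and none lower, where 0.716% were. They were Cenpa (3.14 ± 0.54, adjusted p = 0.00579), Spc24 (3.46 ± 0.51, 0.00296), Ube2c (4.00 ± 0.94, 0.0249), Pbk (5.30 ± 0.94, 0.00658), Aurkb (4.37 ± 1.07, 0.0292), Birc5 (4.44 ± 0.67, 0.00338), Nusap1 (4.28 ± 0.56, 0.00141) and Stmn1 (2.59 ± 0.44, 0.00511), all from limma. Markers of other retinal cells moved the other way: 3 of 8 bipolar markers (Pcp2, Cabp5 and Gng13) and 1 of 8 Mueller glia markers (Glul) were called lower at day 4, with list medians of -1.98 and -2.2. At day 2 these medians were -2.1 and -2.38, with none called. Their part in the changes was not tested beyond the fits with these markers as a covariate. Of the 8 genes, Aurkb had not passed at day 2. It was at 34.3, 38.3, 12.2 and 10.7 FPKM at day 4 and at 2.66, 4.25, 0 and 22.5 at day 7. Nuf2 and Prc1, called at day 2, did not pass at day 4, with changes of 1.45 and 2.15. The median of the 49 was 1.73 against 0.16 over all tested genes, and 9 of the 50 had all 4 day 4 libraries above all of day 0, as had 12.6% of all tested genes. At day 2 that count had been 28.

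The split at day 4 followed the title-code batch. In 40 of the 50 genes both batch 1 libraries were above both batch 2 libraries, and the reverse held in 0. Over all tested genes these shares were 26.6% and 15.2%. At day 2 batch 1 was above in 5 and batch 2 above in 19, with 22.4% and 21.3% over all tested genes. At day 0 the counts were 28 and 2 (30.7% and 19.1% of tested genes). At day 7 they were 12 and 10, near the 19.4% and 18.6% of all tested genes. From day 2 to day 4 the median change of the 49 was 0.64 within batch 1 and -2.37 within batch 2, against 0.31 and 0.01 over all tested genes. Within batch 2 the test called 5 genes lower at day 4 than at day 2, Cenph, Cenpm, Nek2, Anln and Mki67, where 0.21% of all tested genes were called lower, and within batch 1 it called none, where 0.00676% were.

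The difference between the batches was tested as an interaction. Its median over the 49 was -3.09 on the log2 scale against -0.23 over all tested genes, and 24 of 49 had an unadjusted p under 0.05, as had 9.74% of all genes. Only Nek2, a kinase that splits the centrosomes, passed after adjustment, where 0.0338% of all tested genes did. At day 2 Nek2 stood at 0.0896 and 0.0247 FPKM in batch 1 against 9.72 and 6.38 in batch 2. At day 4 the order was reversed, with 2.53 and 7.05 in replicates 1 and 2 and 0 in both others. Its batch difference was -5.49 ± 0.64 (limma, adjusted p = 0.0197). Day 0 libraries held at most 0.12 FPKM of Nek2, and every day 7 library listed it at 0. Within each batch, days 2 and 4 also carry different 6-digit codes, and in batch 2 different title prefixes, so day cannot be told apart from code or prefix there.

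**Figure D5:**
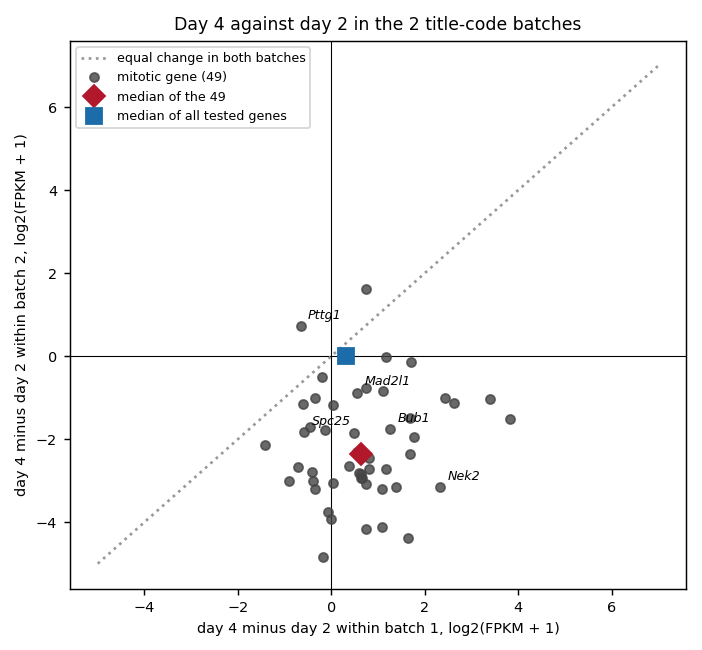
Change from day 2 to day 4 of each of the 49 tested genes within batch 1 (horizontal) and within batch 2 (vertical), in log2(FPKM + 1); the dotted line marks an equal change, the red diamond is the median of the 49 and the blue square that of all tested genes. Nearly all points lie below 0 on the vertical axis and most lie right of 0 on the horizontal one, with medians of 0.64 and -2.37.

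Several measures of the 4 day 4 libraries stand beside this split. Recovered reads were 11697109 and 9970165 in batch 1 and 12864473 and 15708302 in batch 2. The batch 2 libraries thus held more reads assigned to genes, a count that does not measure how many different RNA molecules were captured. The mean microglia marker level was 7.94, 8.05, 8.08 and 7.92 in replicates 1 to 4, and that of Mueller glia markers 2.63, 2.34, 1.72 and 2.91. Genes at 1 FPKM over the whole table were 13050 and 12380 against 9808 and 10096. The monocyte marker level was 0.92 and 0.69 against 0.20 and 0.06, with Ccr2 at or below 0.132 FPKM in all 4. The part of these measures in the split was not tested.

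The calls at day 4 depended on the same libraries. Without day 4 replicate 3 the test called 13 members higher (448 of 14653 genes tested) and without replicate 4 it called 11 (483 of 14641), with 8 in the full fit (684 of 14795). Without replicate 1 or replicate 2 it called 6 (345 of 14423 and 248 of 14499). With the bipolar and Mueller glia covariate it called none, nor any of the 14795 tested genes. Within batch 1 it called 12 higher, among them Tacc3 (5.15) and Cdca3 (5.20), and 1 lower, Spc25, where 1.92% and 0.852% of all tested genes were called. Within batch 2 it called 3 higher, Pbk (4.59), Birc5 (3.44) and Nusap1 (4.00), where 0.933% were. Single libraries ended 2 of the 8 calls: Ube2c without day 0 replicate 2 or day 4 replicate 1, 2 or 3 (adjusted p up to 0.0855) and Aurkb without any 1 day 0 library or day 4 replicate 1 or 2 (up to 0.0985). Dividing the values by median-of-ratios factors moved the median of all tested genes at day 4 from 0.16 to -0.18, and 7 members were then called higher, among 153 of 14829 genes tested. Of all genes called at day 4, 86.6% were higher in the fit to the deposited values and 56.2% after those factors.

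At day 7 the libraries varied, with 12 to 33 of the 50 genes at 1 FPKM. Against day 0 only Birc5 was called, by 3.30 ± 0.67 (limma, adjusted p = 0.0488), where 0.27% of all tested genes were called higher and 0.135% lower. That call held only without day 4 replicate 3 or day 7 replicate 2, with adjusted p up to 0.157 in the other 14 fits that left out 1 library. The change of Birc5 was 2.14 within batch 1 and 4.45 within batch 2. Within batch 2, 4 genes were called higher, Birc5, Pbk, Cenpm and Kif20a, where 0.635% of all tested genes were, and within batch 1 none, where 0.0473% were. The median change of the 49 was 0.56 against -0.07 over all tested genes, and 5 of the 50 genes had all 4 libraries above day 0 (2.51% of tested genes).

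Set against the earlier days, Spc24 and Nusap1 fell. From day 2 to day 7 Spc24 fell by 4.04 on the log2 scale (SE 0.51; limma, adjusted p = 0.00802) and Nusap1 fell by 3.18 (SE 0.56; adjusted p = 0.0494), where 0.0473% of all tested genes were called lower. From day 4 to day 7 they fell by 3.08 and 3.30 (adjusted p = 0.00836 and 0.0095), where 1.5% were called lower. For both genes all 4 day 7 libraries were below all 4 of day 2 and all 4 of day 4, as was so in 2.97% and 8.66% of all tested genes. The median of the 49 was -1.96 against day 2 and -1.18 against day 4. Against day 2, 34 had an unadjusted p under 0.05, as had 1358 of the 14795 tested genes. Within batch 1 the step from day 4 to day 7 had a median of -2.31 and within batch 2 of 0.03. The Nusap1 fall from day 2 kept its call only without day 2 replicate 1 or day 7 replicate 1 (adjusted p up to 0.216 in the other 14 fits). Spc24 lost its fall from day 2 without day 2 replicate 4 or day 7 replicate 2 (adjusted p up to 0.0618). Both falls from day 4 held in all 16 fits. From day 2 to day 4 no member was called, where 0.433% of all tested genes were called higher and 0.0203% lower. Of the members 10 had an unadjusted p under 0.05 there, as had 1692 of the 14795 tested genes. Over the 4 days together the F test called 10 members, the 9 of day 2 and Anln, where 2.89% of all tested genes were called.

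A wider list of 110 further genes of mitosis was also examined. It holds other centromere and checkpoint proteins, subunits of the anaphase-promoting complex, spindle and centrosome genes, condensins and cohesins, and regulators of mitotic transcription. Of these, 93 were tested. None was called at day 2, where 0.25% of all tested genes were called higher and 0.0608% lower. The median change of the 93 was 0.77, and 15 of them had an unadjusted p under 0.05. Of all 14795 tested genes 1439 had such a p at day 2, and their median change was 0.04. At day 4 1 of the 93 was called higher, Ube2s, where 4.62% of all tested genes were. Ube2s is the enzyme that extends ubiquitin chains on the same complex as Ube2c. It was at 5.54, 3.54, 3.27 and 0.334 FPKM at day 0, at 13.9, 7.84, 14.6 and 9.18 at day 2 and at 16.1, 10.8, 10.3 and 6.90 at day 4, so that it rose by 1.68 ± 0.46 (limma, adjusted p = 0.0461). At 1 FPKM or more stood 96 and 86 of the 110 in day 4 replicates 1 and 2 and 44 and 47 in replicates 3 and 4. That was the order of the 50 genes and also of all tested genes, at 83.4% and 79.8% against 63.9% and 65.8%.

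The MCM helicase opens DNA for replication before mitosis. Of the 7 genes listed under this name 6 were tested. None passed at day 2, where their median change was 1.89, and 3 rose at day 4: Mcm2 (3.63 ± 0.82, adjusted p = 0.0206), Mcm5 (5.08 ± 1.13, 0.0184) and Mcm7 (3.91 ± 0.81, 0.0133), from limma, with all 4 libraries above day 0. Of all tested genes 4.62% were called higher at day 4. The mean log2 level of the 7 listed genes at day 4 was 5.06 and 5.25 in batch 1 and 3.75 and 4.72 in batch 2, with 7, 7, 6 and 6 genes at 1 FPKM. At day 2 it was 2.48 and 1.53 in batch 1 and 3.67 and 4.92 in batch 2. From day 2 to day 4 the median change was 3.17 within batch 1 and -0.32 within batch 2, and no MCM gene was called between these days. The median day 4 change was 4.27 within batch 1 and 3.03 within batch 2, where that of the 49 mitotic genes was 3.0 and 0.77. Mcm2, Mcm6 and Mcm7 then fell from day 4 to day 7 by 3.49, 4.01 and 4.09 (limma, adjusted p = 0.0476, 0.0358 and 0.0226), where 1.5% of all tested genes were called lower. The difference between the MCM and mitotic lists was not tested.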

How the data were processed

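RNA of sorted Iba1-EGFP+ cells was amplified as cDNA and made into unstranded Nextera XT libraries, per the labels' protocols. The deposited FPKM values were made by the authors, with STAR 2.7.2b, featureCounts 1.6.1 and build GRCm38.p6 named in the submitters' processing notes. Here log2(FPKM + 1) was fitted with limma 3.58.1 in R 4.3.3 (day means, title-code batch as covariate, trended eBayes, all 16 libraries) over the 14795 genes that reached 1 FPKM in 4 or more libraries. P-values were adjusted by Benjamini-Hochberg over those genes within each of 6 comparisons, with a threshold of 0.05. Within-batch changes came from a fit with day by batch. Promoter windows came from RefSeq. Reads per library and per gene were recovered from the step size of the FPKM values. The fit was tested on simulated data, and the outcome of that test is not reported here. Values in every library are given for genes called in any comparison and for the gene of highest mean level in each role; other members named with values were chosen after their values were seen. The members, lists and tests were chosen with earlier results of these data known. Alternatives covered the pseudocount, filter, scaling, batch terms, marker covariate and left-out libraries.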

Additional observations from a re-analysis of the deposited data

Results flagged for a closer look

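In 80 groups of 4 libraries, a library far from the other 3 was looked for. The groups were the genes given in every library, on each day, and the count at 1 FPKM and median level of the set. The ratio of that library's gap to the whole range was set against a critical value of 0.829. For normally spread values chance passes this value in about 1 of 20 groups. That rate does not hold for groups near 0. Where 3 libraries are listed at 0 and 1 is not, the ratio is 1 by construction, as for Cenpm and Spc24 at day 0. At day 0, replicate 1 was the high library for Cenpa (0.5692 FPKM), Cenpm (0.5802) and Birc5 (0.4596). Replicate 2 was the high library for Spc24 (0.03821) and Racgap1 (3.28), and replicate 4 for Nuf2 (0.04584). The Spc24 value stood for 1 recovered read, with 0 in each other day 0 library. That of Nuf2 stood for 4 reads, with 1 in each other day 0 library. At day 7, replicate 3 was the high library for Spc24 (1.788 FPKM), Ube2c (15.74) and Racgap1 (11.26).

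The change of Nek2 from day 2 to day 4 differed between the batches by -5.49 on the log2 scale (limma interaction, adjusted p = 0.0197).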

How the results depend on the processing

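Across the alternatives the 22 called changes kept their direction, with 493 values on the same side of the threshold and 164 no longer past it; uncalled changes were not all stable in direction, Spc25 at day 2 being 0.97 within batch 2. At day 2, where 9 members were called, the count was 22 with the full title code as covariate, 0 without both libraries of prefix F, 5 in batch 1 alone, 1 in batch 2 alone, 0 with the bipolar and Mueller glia covariate, 2 without day 0 replicates 1 and 2 (an alternative chosen after seeing the data) and 5 to 12 leaving out 1 library; the median of 2.7 became 4.49 and 3.81 with pseudocounts of 0.1 and 0.25. At day 4 (8 called) it was 15 with the title code, 0 in batch 2 alone, 0 with the covariate, 4 without day 0 replicates 1 and 2 and 6 to 13 leaving out 1 library; the median was 3.0 in batch 1 alone. At day 7 (1 called) it was 3 with the title code and 0 with no filter, the replicate block, no prefix F libraries, either batch alone, the covariate, no trend, or no day 0 replicates 1 and 2, and 0 to 2 leaving out 1 library; the median was 2.1 with the title code. From day 2 to day 4 the median of -0.88 was 0.63 in batch 1 alone, -1.78 in batch 2 alone, -0.18 without prefix F and -1.38 to -0.52 leaving out 1 library. From day 2 to day 7 (2 called) the count was 1 with pseudocounts of 0.1 or 0.25, no filter, no batch term, no trend, or no day 0 replicates 1 and 2, 5 with the filter at 8 libraries, 0 with the title code, no prefix F libraries, either batch alone or the covariate, and 0 to 3 leaving out 1 library; the median was -3.38 with a pseudocount of 0.1. From day 4 to day 7 (2 called) it was 1 with the title code, 0 in either batch alone or with the covariate, and 2 to 5 leaving out 1 library; the median was -2.31 in batch 1 and 0.24 in batch 2. The F test count of 10 became 19 with the title code, 6 without prefix F, 0 in batch 2 alone, 0 with the covariate and 7 to 13 leaving out 1 library. The batch difference of -3.09 became -4.92 and -4.40 with pseudocounts of 0.1 and 0.25. The cause of these shifts was not tested. In their deviations from the day means, same-numbered libraries of a batch correlated between -0.056 and 0.234. Differently numbered libraries of a batch correlated between -0.043 and 0.184. These values cannot show whether the replicate numbers paired the samples. The replicate block gave 8, 8 and 0 calls at days 2, 4 and 7.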
